A study of Gallus gallus with 4 samples.

Results

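The genes described here are 5 of the 21328 genes counted in single cells of the chick trunk, namely KDR, LMO2, ETS1, HBZ and HBA1. They were chosen by name, as genes of blood and blood vessels and of the haemoglobins, and all 5 were found and had counts in every library. Trunk tissue caudal to the third somite was collected from chicken embryos with 4, 7, 10 and 13 somites (4S, 7S, 10S and 13S), at least 4 embryos were pooled per stage, and each pool gave 1 droplet library. No group was treated or genetically altered, and the tissue was unsorted. The values are counts of unique molecular identifiers (UMIs) per gene and cell.

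KDR is a receptor for vascular endothelial growth factor (VEGF) and marks mesoderm that gives rise to endothelium and blood, as well as endothelium itself. LMO2 is an adaptor protein that bridges TAL1, E proteins and GATA factors on DNA, and it is needed for blood formation and vessel remodelling, and ETS1 is a transcription factor of the ETS family, members of which bind many endothelial enhancers. HBZ encodes the embryonic α-type globin chain of the chick and HBA1 the αA chain, and both are parts of haemoglobin. In the RefSeq gene table for the chicken (GRCg7b) HBZ, HBAD and HBA1 lie next to each other in this order on chromosome 14, and the β-type genes HBE, HBBA, HBE1 and HBBR lie together on chromosome 1. The first blood cells of the chick arise in the extraembryonic yolk sac, close to the first endothelium, and enter the embryo with the circulation.

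Cells with at least 2500 UMIs and at most 7.5% mitochondrial UMIs were used, 25379 in all, with 4025, 5909, 8669 and 6776 cells from 4S to 13S. The median depth was lowest at 7S, with 3758 UMIs per cell, and lay between 7182 and 8849 in the other libraries. Levels are given in CPM, the UMIs of a gene scaled to a total of 1000000 UMIs in the library or cell group. For shares of cells with a UMI, each cell was first thinned to 2500 UMIs at random. Since each stage had a single library, stages were not tested against each other. Intervals for a stage are 95% exact intervals, Poisson for counts and Clopper-Pearson for shares, and cover counting error only. Clusters were made without the 5 genes and the other globins. Of the cell barcodes, 63 occurred in more than 1 library.

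KDR fell at every step of the stage series, LMO2 fell in smaller steps, ETS1 peaked at 7S and both globin genes were highest at 13S. From 4S to 13S, KDR had 62.5 CPM (60.0 to 65.1), 26.0 CPM (24.0 to 28.1), 11.8 CPM (11.0 to 12.7) and 6.92 CPM (6.24 to 7.66). No intervals of neighbouring stages overlapped, and the level at 4S was 9.03 times that at 13S. Of the 12874 genes with at least 10 UMIs in both of these libraries, 4.65% had a 13S level of at most 0.5 times the 4S level, and KDR had the 28th largest fall. LMO2 had 116, 108, 90.2 and 54.7 CPM from 4S to 13S, a ratio of 13S to 4S of 0.472. ETS1 had 69.0, 110, 46.6 and 34.5 CPM, and 13S was 0.4995 times 4S. The high 7S value of ETS1 came from the library with the lowest depth per cell, and the part of depth in it was not tested. Thinned shares of cells moved the same way. They were 11.0, 5.03, 2.63 and 1.46% for KDR, 11.3, 7.11, 6.49 and 3.73% for LMO2, and 10.6, 14.1, 8.06 and 6.33% for ETS1.

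The globin genes rose late and in few cells. HBZ had 4.20, 1.27, 6.24 and 48.1 CPM from 4S to 13S, from 157, 31, 402 and 2606 UMIs. HBA1 had 1.93, 0.857, 0.652 and 15.2 CPM in the same order, from 72, 21, 42 and 826 UMIs. HBZ was 11.4 times and HBA1 7.91 times as high at 13S as at 4S, in a background of 6.02% of genes that rose at least 2-fold. The rise was carried by a handful of cells. At 13S, cells with at least 10 globin UMIs held 90.5% of the HBZ UMIs and 91.7% of the HBA1 UMIs, and at 4S they held 10.8% and 20.8%. Without these cells 13S was 1.22 times 4S for HBZ and 0.836 times for HBA1, so the direction for HBA1 turned. The thinned share of cells with HBZ was 0.870% at 4S and 1.18% at 13S. The other globins detected were also highest at 13S. HBBR had 0.0535 CPM at 4S and 17.4 at 13S, HBAD 1.71 and 10.0, and HBE 2.49 and 8.27. HBBA was listed at 0 UMIs in every library.

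**Figure D1:**
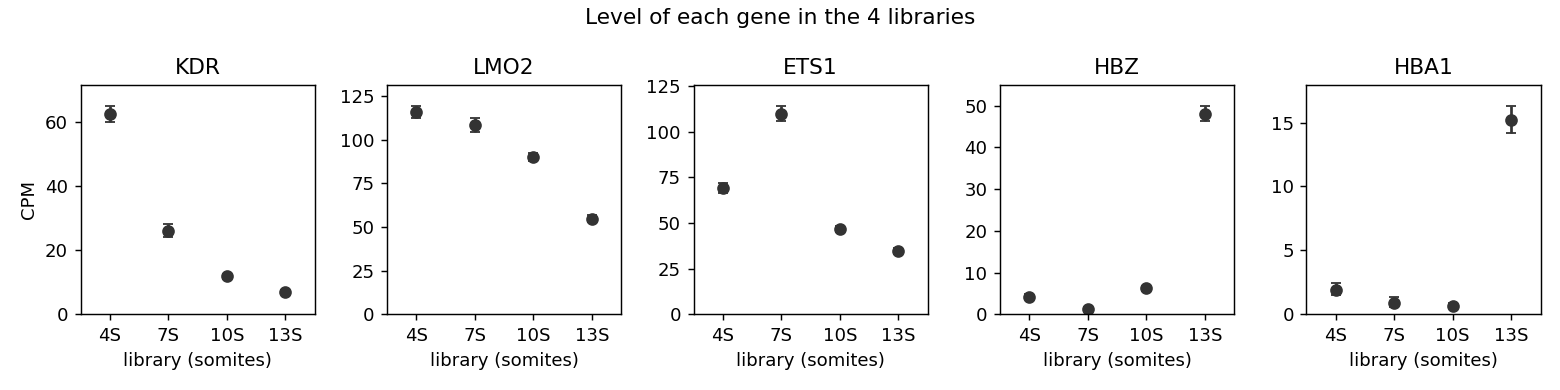
Level of KDR, LMO2, ETS1, HBZ and HBA1 in the 4 libraries, in CPM on linear axes that start at 0 and differ between genes; points are libraries and bars are 95% exact Poisson intervals. KDR falls from 62.5 to 6.92 CPM, ETS1 peaks at 110 CPM at 7S, and HBZ reaches 48.1 CPM at 13S.

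Other genes of blood and vessels took various courses between 4S and 13S. TAL1 and GATA2, which encode partners of LMO2, had ratios of 13S to 4S of 0.214 and 0.221. FLI1, an ETS factor of endothelium, had 0.475, close to ETS1. CDH5, the cadherin of endothelial junctions, had 2.86, SOX18 had 3.60, the angiopoietin receptor gene TEK had 6.39, and ERG, another endothelial ETS factor, had 3.31. TEK had only 19 UMIs at 4S and ERG 25. The vessel list genes SOX17, APLNR and EGFL7 went the other way, with ratios of 0.0820, 0.242 and 0.304. Of the 18 genes of the vessel list with enough UMIs, 4 rose at least 2-fold and 3 fell to 0.5 times or less, with a median ratio of 0.941. Over all 12874 genes 6.02% rose and 4.65% fell by these limits, with a median of 0.995. Of the 7 LMO2 partners none rose and 3 fell, with a median of 0.866. Of the 8 genes of the VEGF pathway, 1 rose and none fell. The other VEGF receptor genes FLT1 and FLT4 had ratios of 1.29 and 1.78 and the ligand gene VEGFA 0.808, against 0.111 for KDR.

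The course of KDR differed between cells inside and outside the vessel clusters. Clusters 30 (447 cells) and 41 (311 cells) were called haemato-vascular-like because all 8 markers TAL1, FLI1, CDH5, HHEX, SOX18, EGFL7, CD34 and ERG were detected in both, and are named vessel clusters below. They held 187, 149, 276 and 146 cells from 4S to 13S, or 4.65, 2.52, 3.18 and 2.15% of the libraries. Within them KDR had 266, 227, 207 and 226 CPM, so that 4S was 1.18 times 13S. In all other cells KDR had 52.0, 20.6, 5.95 and 2.73 CPM, and 4S was 19.1 times 13S. In lateral plate mesoderm-like cells with no LMO2 UMI KDR had 105, 54.1, 8.33 and 2.49 CPM, a 42.3-fold difference. The share of all KDR UMIs found in the vessel clusters rose over the stages, from 20.8% at 4S through 23.1 and 51.2% to 61.3% at 13S.

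LMO2 also fell at each step outside the vessel clusters. Inside them it peaked at 7S, the library with the lowest depth per cell, and then fell, but stayed above its 4S level. ETS1 fell less steeply outside the vessel clusters, after a peak at 7S. LMO2 had 1626, 3195, 2560 and 2502 CPM in the vessel clusters, and 38.3, 24.7, 15.8 and 7.92 CPM outside them. The vessel clusters held 68.6, 77.8, 83.0 and 85.8% of the LMO2 UMIs, a rise at each step, and outside them 4S was 4.84 times 13S. ETS1 had 571, 1325, 593 and 606 CPM in the vessel clusters and 43.2, 77.2, 30.1 and 23.5 CPM outside them, so the 7S value was the highest on both sides. Inside the vessel clusters the ETS1 level at 4S was 0.942 times that at 13S, and outside them it was 1.84 times. The share of ETS1 UMIs inside the vessel clusters did not rise at each step, at 40.5, 31.8, 37.3 and 33.0%. Cluster 41 at 7S had the highest levels of both genes, 5603 CPM for LMO2 and 1742 CPM for ETS1.

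**Figure D2:**
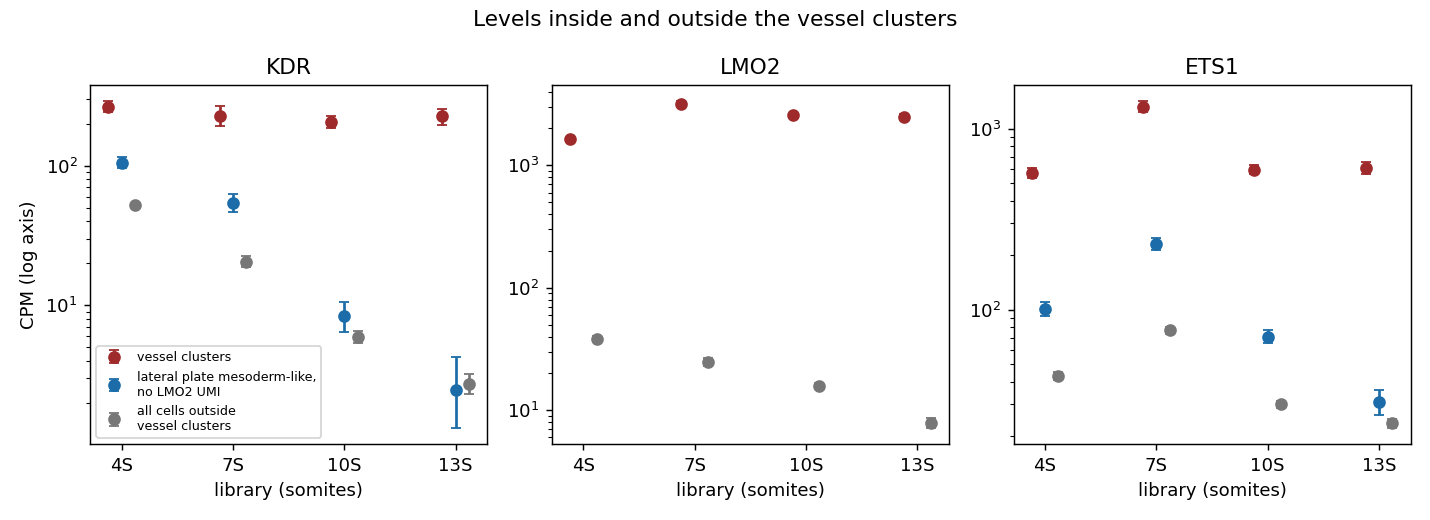
Levels of KDR, LMO2 and ETS1 by library in the vessel clusters, in lateral plate mesoderm-like cells with no LMO2 UMI (not drawn for LMO2) and in all cells outside the vessel clusters, in CPM on log axes with 95% exact Poisson intervals. KDR stays between 207 and 266 CPM in the vessel clusters and falls from 52.0 to 2.73 CPM outside them.

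In the vessel clusters KDR had 232 ± 24.7 CPM, LMO2 2471 ± 645 and ETS1 774 ± 367 (SD, n = 4 libraries). The 3 genes were thus all highest there, and LMO2 was seen in nearly every cell. After thinning, 95.1% of the 758 vessel cells had an LMO2 UMI, 72.4% an ETS1 UMI and 42.5% a KDR UMI, at a median depth of 6527 UMIs before thinning. In neural-like cells, taken for comparison, the shares were 3.20% for LMO2, 1.13% for ETS1 and 0.0942% for KDR at a median depth of 6776.5 UMIs. The part of free RNA in these shares was not tested, and the classes differed in their make-up by stage. The LMO2 share was at or close to that of neural-like cells in paraxial (3.03%) and somitic (3.79%) mesoderm-like cells. It was above it in lateral plate mesoderm-like (6.23%) and notochord-like (7.38%) cells. ETS1 was more widespread, with 160 ± 77.9 CPM in intermediate mesoderm-like cells, 122 ± 93.6 in lateral plate mesoderm-like cells and 73.0 ± 32.5 in somitic mesoderm-like cells. The SD of these values is over libraries of different stages.

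KDR was also found in cells without LMO2. Between 44.3% and 67.3% of the KDR cells of a library had no LMO2 UMI after thinning, from 4S to 13S 296 of 442, 200 of 297, 101 of 228 and 46 of 99, with a mean of 56.3% ± 12.6 (SD, n = 4). With a minimum of 2 UMIs for either gene, the mean was 42.2%. Of the 541 KDR cells that had no LMO2 UMI at full depth either and lay outside the vessel clusters, 178 (32.9%) were lateral plate mesoderm-like and 68 (12.6%) paraxial mesoderm-like. Unnamed clusters 10 (led by MSX1, HOXD8 and CFC1), 21 (MESP1, FGF19 and MSX1) and 33 (MSGN1 and MSX1) held 54, 48 and 32 of them. As a share of its own cells, this was 5.51% of the lateral plate mesoderm-like cells, 1.61% of the paraxial mesoderm-like cells, and 7.58, 8.11 and 7.46% of clusters 10, 21 and 33. Surface ectoderm-like cells held 31, cluster 8 (TBXT and FGF8) 25, neuromesodermal progenitor (NMP)-like cells 24, somitic mesoderm-like cells 22 and notochord-like cells 21.

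The KDR level of LMO2-negative cells gave another order, with paraxial mesoderm-like cells lower. It was 53.4 ± 45.9 CPM in cluster 21, 44.5 ± 37.5 in cluster 10, 42.5 ± 47.7 in lateral plate mesoderm-like cells and 41.9 ± 45.5 in cluster 33 (SD, n = 4 libraries). These 4 groups differed by less than their spread over the libraries, which was wide because the level fell with stage in each. Below them were cluster 8 with 20.6 ± 23.6 CPM, paraxial mesoderm-like cells with 11.7 ± 12.1, surface ectoderm-like cells with 9.63 ± 9.42, notochord-like cells with 8.93 ± 4.14 and NMP-like cells with 6.83 ± 5.27. Neural-like cells were near the bottom with 0.773 ± 1.55 CPM. Of the named clusters, lateral plate mesoderm-like cluster 12, led by CFC1, SS2, DLX5, MSX2, GATA2, ISL1 and HOXA9, had the highest KDR level at 82.0 ± 79.8 CPM. Its values by library were 176, 119, 21.6 and 10.5 CPM. Notochord-like cells did not show this fall, with 8.43, 4.73, 7.95 and 14.6 CPM and 13S as the highest library. These low levels rest on few cells, since the class held 200, 184, 360 and 218 cells from 4S to 13S before cells with LMO2 were left out.

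**Figure D3:**
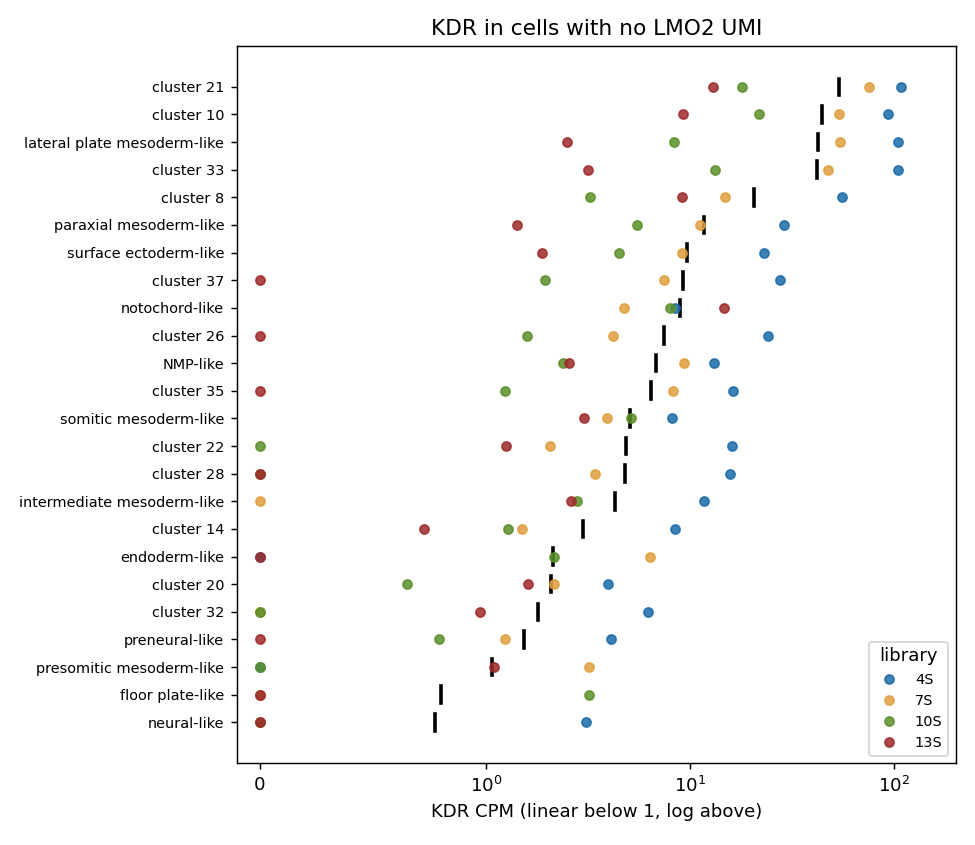
KDR level in cells with no LMO2 UMI, in CPM, by class or unnamed cluster present in all 4 libraries; points are libraries, black bars are means, and points at 0 overlap. The axis is linear below 1 and logarithmic above. Cluster 21 (53.4 CPM) and lateral plate mesoderm-like cells (42.5 CPM) lie at the top and neural-like cells (0.773 CPM) near the bottom.

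To find which genes went with LMO2 among KDR cells, UMIs were summed per library over KDR cells with and without an LMO2 UMI, and edgeR's quasi-likelihood test was run on these sums with the library as block and Benjamini-Hochberg adjustment at 0.05. KDR and LMO2 were left out. Of the 5892 genes tested, 269 (4.57%) were higher and 173 (2.94%) lower in the cells with LMO2. ETS1 had 479, 1030, 632 and 559 CPM with LMO2 and 99.0, 175, 104 and 109 CPM without it. The 2 groups did not overlap, and the log2 difference was 2.41 (SE 0.09, adjusted p = 3.95e-09). HBZ had 26.3, 14.1, 16.8 and 123 CPM with LMO2 and 1.34, 1.17, 0 and 0 CPM without it, a log2 difference of 4.72 (adjusted p = 3.08e-05). These levels came from 37, 6, 14 and 43 UMIs with LMO2 and 4, 1, 0 and 0 UMIs without it. HBZ thus passed the filter on low counts through the LMO2 side, and the size of its difference is not resolved. At 13S a single cell with at least 10 globin UMIs carried most of the HBZ. Without it HBZ had 34.9 CPM there, and the log2 difference was 4.37 (adjusted p = 9.63e-05), in an alternative added after the data had been seen. HBZ could not be fitted without 4S or without 10S, and HBA1 had too few counts to be tested.

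Most vessel genes tested were higher in the KDR cells with LMO2. Of the 11 vessel genes tested, of 23 found, 9 were higher and none lower, with a median log2 difference of 3.17 beside -0.01 over all genes tested. The filter on low counts could be met by the LMO2 side alone, as for CDH5 and SOX18. The 9 of 11 and the median thus lean towards genes high on that side and describe only the genes kept. CDH5 had 717 UMIs in the KDR cells with LMO2 and 0 in those without, over the 4 libraries together. Against a floor of 3 counts over the pooled group the ratio was 389. The 2 sides drew on the libraries in different proportions, so the size of the difference is not resolved. SOX18, an endothelial transcription factor, had 177 against 0.581 CPM (log2 difference 6.77), and HHEX, a homeobox gene of blood and endothelial precursors, 536 against 4.60 CPM (5.69). Among the VEGF receptors, FLT4 had 92.0 against 10.1 CPM and the co-receptor gene NRP1 109 against 29.4 CPM, and both genes tested of this pathway were higher. Of the LMO2 partners, TAL1 was higher, with 290 against 9.96 CPM, and LDB2 too, though in 3 of 4 libraries. GATA2 had 86.7 against 105 CPM (adjusted p = 0.675, edgeR) and TCF12 450 against 544 CPM, so 2 of 5 tested partners were higher.

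Of 8 other ETS genes tested, FLI1 (332 against 16.8 CPM), ETV6 and ELK3 were higher, with log2 differences of 3.76, 1.32 and 1.06. The integrin gene ITGB3 and ZFPM1, which encodes a GATA cofactor, were the 2 blood genes tested, and both were higher (3.23 and 1.21). CA2, the carbonic anhydrase abundant in red cells, was the only one of 5 tested erythroid genes to pass the test, with 198 against 4.84 CPM. Outside the lists the largest rises were those of RAC2 (5.88), DIPK2B (5.65), GAL (4.41), ARAP3 (4.05) and the TGFβ-family receptor gene ACVRL1 (3.89). Large falls were those of FGF18 (-2.60), TBX6 (-2.23), CXCL14 (-2.22) and FGF19 (-2.18), of which TBX6 is a factor of paraxial mesoderm. Of the 6 lateral plate genes tested, CFC1 (-1.32) and EVX1 (-1.45) were lower and none higher.

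The make-up of the groups moved with these differences. Vessel cells were 59.6, 62.9, 87.4 and 94.3% of the KDR cells with LMO2 from 4S to 13S, and 3.04, 1.00, 1.98 and 0% of those without. Within vessel cells 7 genes passed the test and outside them 12, and the log2 difference of ETS1 was 1.13 (adjusted p = 0.0776, edgeR) and 1.40 (adjusted p = 6.17e-09). These narrower comparisons were added after the data had been seen and rest on few cells. Within vessel cells the side without LMO2 held 9, 2, 2 and 0 cells from 4S to 13S. Outside them the side with LMO2 held 59, 36, 16 and 3. How far the loss of calls came from these low cell numbers was not tested. Without 7S the calls of LDB2 (1.87), ETV6 (1.28), ZFPM1 (1.45), CFC1 (-1.29), EVX1 (-1.44) and TBX6 (-2.24) were lost, and without 10S those of LDB2 (1.48), ETV6 (1.04) and ZFPM1 (0.93).

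A second comparison asked which genes went with KDR where LMO2 was absent. Cells with no LMO2 UMI outside the vessel clusters were divided by KDR, giving 225, 188, 87 and 41 cells with it from 4S to 13S and 2916, 5167, 7584 and 6280 without. Of 11017 genes, 184 (1.67%) were higher and 280 (2.54%) lower with KDR by edgeR's quasi-likelihood test. ETS1 had 65.6, 163, 64.8 and 38.7 CPM with KDR and 28.2, 63.6, 26.6 and 21.6 CPM without, higher in 4 of 4 libraries (log2 difference 1.26, SE 0.12, adjusted p = 4.39e-12). HBZ had 0.430 ± 0.595 against 2.32 ± 1.26 CPM and did not pass (adjusted p = 0.360). Within lateral plate mesoderm-like cells alone the log2 difference of ETS1 was 0.22 (adjusted p = 0.890), so the call did not hold there.

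In these LMO2-negative cells, 4 of 11 lateral plate genes and 2 of 14 vessel genes were higher with KDR. The vessel clusters, left out here, had been named by markers that are also in the vessel, ETS and LMO2 partner lists. Cells high in those genes were thus removed beforehand, and the counts for these lists describe only the cells left. The co-receptor gene CFC1 had 252 against 98.6 CPM (log2 difference 1.37), the transcription factor genes GATA4, EVX1 and HAND2 rose by 1.09, 0.93 and 0.71, and ISL1, 1 of 2 splanchnic and cardiac genes tested, by 1.26. PRRX1 and HLX, homeobox genes of later lateral mesoderm, fell by 1.23 and 2.25. Among the vessel genes, APLNR, the apelin receptor gene (32.4 against 14.0 CPM), and S1PR1 (log2 difference 0.47) were higher and SOX17 lower (-3.04). Of the 7 LMO2 partners, TAL1, GATA2 and TCF12 were higher, with 3.73 against 0.961 CPM for TAL1, in 2 of 4 libraries. FLI1 (1.62, in 2 of 4 libraries) and ELK3 (0.42) were the higher genes among the 10 other ETS genes. GATA4, HAND2, GATA2 and S1PR1 were higher with KDR in 3 of 4 libraries and lower at 13S. No gene of the VEGF pathway passed of 7 tested, and none of 6 blood genes did. CA2, the only gene of the erythroid list to pass of 7 tested, was lower (-2.82). It was also among the 10 leading genes of preneural-like cluster 1 and neural-like cluster 34. The cells with KDR held 0 preneural-like and 0 neural-like cells. The fall of CA2 is thus not a measure of red cell genes, and the part of tissue make-up in it was not tested.

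Outside the lists the largest rises with KDR were SRD5A3 (1.87), SS2 (1.83), HOXA9 (1.62), RASGRP3 (1.59) and KLF15 (1.40). The largest falls were PAX6 (-4.91), HES5 (-3.67), GUCA2B (-3.55), RIPPLY2 (-2.30) and NPY (-2.26), of which PAX6 and HES5 are neural genes. The tissues of the 2 groups differed. Lateral plate mesoderm-like cells were 78 of 225, 77 of 188, 20 of 87 and 3 of 41 (7.32%) cells with KDR from 4S to 13S and 12.3, 13.5, 12.5 and 9.78% of those without, so the share was higher with KDR in 3 libraries and lower at 13S. Neural-like cells numbered 0 with KDR in each library, and 107, 200, 382 and 285 without from 4S to 13S. The part of these tissue differences in the whole comparison, the falls of PAX6 and HES5 included, was not tested. In lateral plate mesoderm-like cells alone CFC1 had a log2 difference of 0.30 (adjusted p = 0.186, edgeR), and 74 genes passed. Leaving out 7S ended the calls of S1PR1 (log2 difference 0.29), TAL1 (1.82), FLI1 (1.12), ELK3 (0.37), GATA4 (0.72) and ISL1 (1.14), leaving out 4S those of S1PR1 (0.36), SOX17 (-1.21) and FLI1 (1.65), and leaving out 10S that of ISL1 (0.99).

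The 5 genes were detected together in single cells more often than their single shares gave. In each library the number of cells with both genes of a pair was set beside the product of the shares, on thinned counts. It was above the product in all 4 libraries for 9 of 10 pairs and in 3 of 4 for KDR and HBZ. The product was taken over all cells of a library, so any genes high in the same cell group can exceed it. Other gene pairs were not counted in this way, so the 9 of 10 describes these pairs only and does not set them apart. With 4 libraries an exact sign-flip test cannot go below p = 0.125, so none was made. KDR and LMO2 were found in 423 cells where 89.4 were given by the product, KDR and ETS1 in 406 beside 114, and LMO2 and ETS1 in 709 beside 169. The globin pair HBZ and HBA1 stood farthest apart, with 20 cells beside 0.664, and 16 of the 20 had at least 10 globin UMIs. HBA1 went with LMO2 in 44 cells beside 4.30, which is 63.8% of the HBA1 cells, and HBZ with LMO2 in 55 beside 12.6. KDR and HBA1 shared 15 cells beside 3.01, and KDR and HBZ 16 beside 7.73.

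Cells with KDR and a globin were thus few. On thinned counts there were 27, of which 26 also had LMO2 and 24 lay in the vessel clusters. On the deposited counts, 146 of the 758 vessel cells had HBZ or HBA1, 99 of them with a single UMI of these genes, 44 with 2 to 9 and 3 with 10 or more. After thinning, 4.62% of vessel cells had HBZ and 4.35% HBA1, beside 2.73% and 0.188% of neural-like cells (median depths 6527 and 6776.5 UMIs). For HBZ this differed by library. Among cells under 10 globin UMIs, the HBZ shares of vessel cells from 4S to 13S were 6.49, 2.68, 2.54 and 6.25%. Those of neural-like cells were 0, 0, 2.36 and 6.17%, so the 2 classes were close at 10S and 13S. On the deposited counts, KDR was present in 73.3% (65.3 to 80.3) of these 146 cells and in 67.2% (63.3 to 70.9) of the others, at median depths of 7593 and 6205 UMIs. By library the shares were 73.4 and 82.1% (4S), 55.6 and 49.6% (7S), 79.3 and 66.4% (10S) and 77.1 and 73.0% (13S), higher with globin in 3 of 4. The direction thus differed between libraries, and the pooled intervals overlapped.

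Cells with LMO2 and a globin were compared with LMO2 cells without one in the same way, leaving out LMO2, HBZ and HBA1. There were 30, 10, 17 and 27 cells with globin and 423, 410, 546 and 226 without. Of 6416 genes, 47 (0.733%) were higher and 63 (0.982%) lower with globin. KDR had 181, 228, 146 and 129 CPM with globin and 178, 125, 110 and 127 CPM without. It was higher in 4 of 4 libraries but not past the test (log2 difference 0.14, SE 0.20, adjusted p = 0.936, edgeR). ETS1 had 470, 1366, 503 and 252 CPM with globin and 298, 584, 315 and 377 CPM without (log2 difference 0.40, SE 0.13, adjusted p = 0.102). Its value turned on the 13S library, the only one with the lower level in globin cells. Without that library the log2 difference was 0.71 (adjusted p = 8.72e-04), and without cells of at least 10 globin UMIs it was 0.55 (adjusted p = 0.00694).

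The largest rise by test among LMO2 cells with globin was that of CA2, with 1756 ± 1862 against 128 ± 58.6 CPM, higher in 4 of 4 libraries (log2 difference 3.56, adjusted p = 6.47e-118, edgeR). Within vessel cells it was 1.91 (adjusted p = 2.23e-13). Of 16 vessel genes tested, CDH5 and HHEX were higher, both by 1.14. Of 6 LMO2 partners TAL1 (1.15) and CBFA2T3 (2.54) were higher and TCF12 lower (-0.47). FLI1 (0.58) was the only one of 10 other ETS genes past the test, ZFPM1 (1.32) 1 of 2 blood genes, and FECH (1.65), which encodes the last enzyme of haem synthesis, and the transferrin receptor gene TFRC (1.52) rose with CA2 among 6 erythroid genes. FECH was higher in 2 libraries and lower in 2. No VEGF pathway gene passed of 4 tested.

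Of the 7 lateral plate genes tested, 3 were lower. BMP4 had 0 UMIs in the LMO2 cells with globin and 286 in those without, over the 4 libraries together. At a floor of 3 counts over the pooled group the ratio was 5.41, which takes no account of the library make-up of the 2 sides. CFC1 fell by 0.95 and EVX1 by 2.22. Outside the lists CIDEC (2.81), DAPP1 (2.33), TMEM268 (2.26), LGALS2 (1.82) and SNX20 (1.68) rose most. POSTN (-5.55), CHRD (-3.76), MEOX1 (-3.71), ARHGAP8 (-3.54) and NOTO (-3.41) fell most, of which CHRD and NOTO are notochord genes. Vessel cells were 86.7, 100, 58.8 and 55.6% of the LMO2 cells with globin and 33.6, 31.5, 47.6 and 57.1% of those without. Within vessel cells 3 genes passed the test. There CDH5 had a log2 difference of 0.55 (adjusted p = 0.333, edgeR) and TAL1 one of 0.11, and KDR turned to -0.26 and ETS1 to -0.25. Several calls rested on single libraries. Leaving out 4S ended those of ZFPM1 (1.17), LGALS2 (1.19) and NOTO (-2.12), leaving out 7S those of CDH5 (1.01), DAPP1 (2.32) and SNX20 (1.30), and leaving out 13S that of FECH (0.83). TCF12 (-0.60 to -0.36), TFRC (0.98 to 1.93) and CFC1 (-2.12 to -0.76) lost the call whichever library was left out, and FLI1 (0.39 to 0.53), EVX1 (-2.18 to -1.87) and ARHGAP8 (-3.43 to -2.55) for 3 of the 4. TMEM268 lost it without 4S (1.67) and without 7S (2.01).

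The cells richest in globin had LMO2 without detected KDR. Cluster 47 held 12 cells, 2 at 10S and 10 at 13S, each with 71 to 1301 globin UMIs. It stayed unnamed, since it had fewer than the 20 cells asked for a name. Its best match was haemato-vascular, with 4 markers detected, a mean z score of 1.48 and 2 of the markers among its 10 leading genes. An erythroid name, which needed 3 markers, could not be given, since only 2 of the 7 erythroid markers were found by name in the gene list. HBZ ranged from 14 to 527 UMIs per cell, with a median of 206, and HBA1 from 3 to 237. LMO2 was present in 12 of 12 cells, with 2 to 9 UMIs and a median of 5. LMO2 was nonetheless lower than in the vessel clusters, which had 2560 CPM at 10S and 2502 CPM at 13S. The count of 9 came from a 10S cell with 7859 UMIs. KDR had 0 UMIs in 12 cells with 96318 UMIs, which allows up to 31.1 CPM, and at 13S its level was at least 6.21-fold lower than the 226 CPM of the vessel clusters. ETS1 was seen in 4 cells with 5 UMIs in all, and CDH5 in 6 cells with 9 UMIs. TAL1 was present in 12 of 12 cells and HHEX in 12, while CD34 had 0 UMIs and RUNX1 was seen in 1 cell. Of 7 further cells with at least 10 UMIs over all globins, 4 lay in vessel cluster 30 and 3 in cluster 42, an intermediate mesoderm-like cluster led by MNX1, LHX1 and PAX2.

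**Figure D4:**
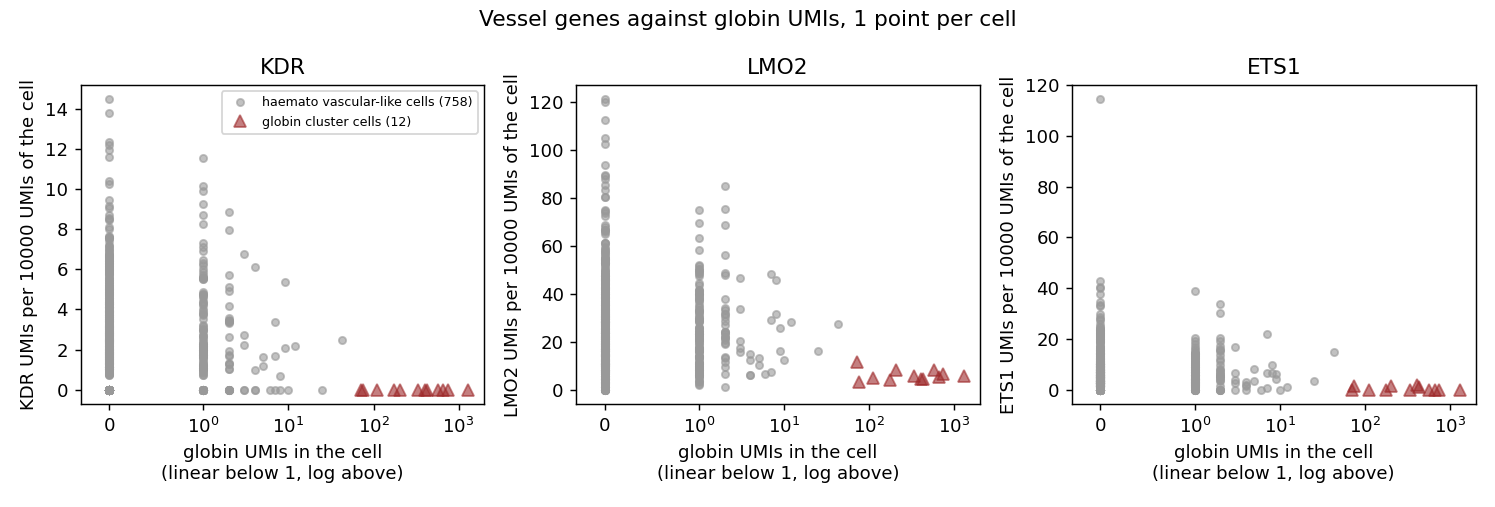
KDR, LMO2 and ETS1 UMIs per 10000 UMIs of a cell (y axes, different scales) against the HBZ, HBA1 and other globin UMIs of the cell (x axes, linear below 1 and logarithmic above), with 1 point per cell for 758 vessel cells and 12 cells of cluster 47. The cluster 47 cells have 71 or more globin UMIs, LMO2 above 0 in each cell and KDR at 0.

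HBZ and HBA1 did not keep the same ratio across cell groups. The 2 genes are paralogues and capture may differ between them, so only the change of their ratio between groups is described. In vessel cells under 10 globin UMIs there were 141 HBZ and 101 HBA1 UMIs, an HBZ share of 58.3% (51.8 to 64.5), and the share was 59.0, 38.5, 67.7 and 60.3% by library. In cluster 47 there were 2516 and 745 UMIs, a share of 77.2% (75.7 to 78.6). Cluster 42, with all its cells, had 68 and 42 UMIs, of which 53 and 41 were from 13S, a share of 61.8%. Under 10 globin UMIs per cell, as for the vessel cells, it had 48 and 18 UMIs, a share of 72.7%. In 5 other clusters HBZ was found almost without HBA1. Cluster 28 (led by TCF21 and HLX) had 97 HBZ and 3 HBA1 UMIs, cluster 22 (ACTA2 and LUM) 56 and 2, endoderm-like clusters 43 (APOA1 and TTR) 46 and 0 and 39 (SOX17 and FOXA1) 27 and 1, and neural-like cluster 15 (PAX6 and SOX1) 68 and 0.

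Together these 5 clusters held 294 HBZ and 6 HBA1 UMIs, an HBZ share of 98.0% (95.7 to 99.3). They were picked after their values had been seen, so the share is a description. By library the UMIs of HBZ and HBA1 were 51 and 3 (4S), 18 and 1 (7S), 129 and 0 (10S), and 96 and 2 (13S). HBZ was found in 220 of the 2335 cells, with at most 8 UMIs in a cell, and LMO2 in 17 of these 220 cells. In the vessel clusters under 10 globin UMIs, LMO2 was found in 87 of 87 HBZ cells. There, 95.1% of all vessel cells had LMO2 even after thinning, so the 87 of 87 does not tie LMO2 to HBZ. The LMO2 share of all 2335 cells was not set beside the 17. Cluster 28 had HBZ in every library, at 14.6, 9.40, 45.2 and 20.6 CPM. Cluster 15 had none at 4S and 7S, 13.5 CPM at 10S and 32.3 at 13S. All other cells, 21999 in number and outside cluster 42 as well, had 129 HBZ and 35 HBA1 UMIs, or 0.824 CPM of HBZ. The part of free RNA in these counts was not tested.

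**Figure D5:**
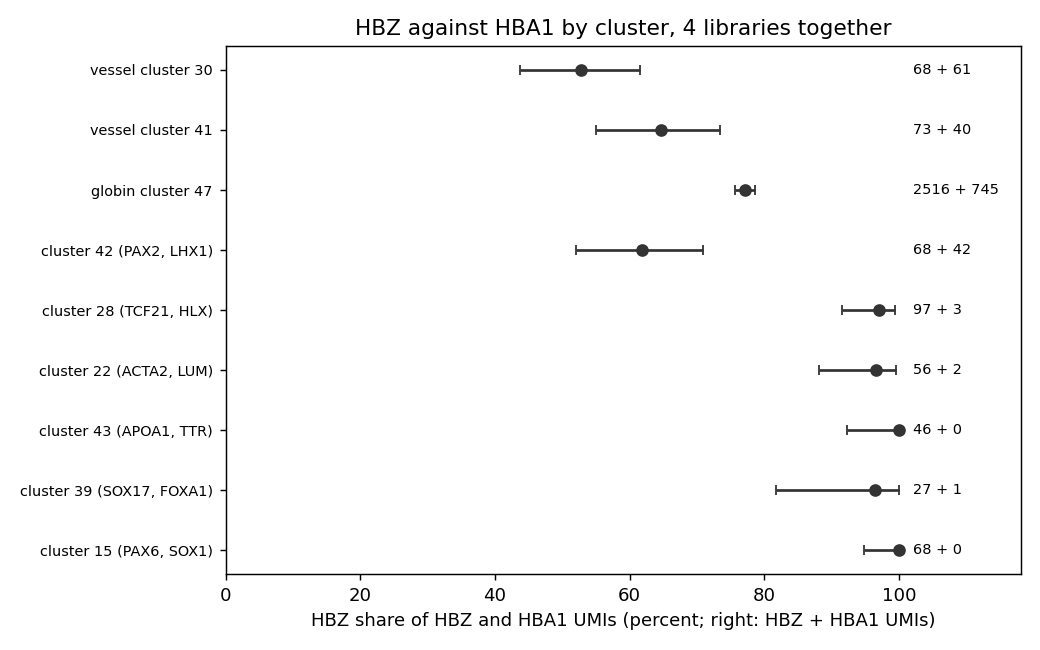
HBZ share of the summed HBZ and HBA1 UMIs by cluster, in percent, over the 4 libraries together; bars are 95% exact Clopper-Pearson intervals and the numbers at the right are HBZ and HBA1 UMIs. The vessel clusters are drawn without cells of at least 10 globin UMIs. Cluster 47 has 77.2%, and clusters 28, 22, 43, 39 and 15 lie at the right edge.

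The genes whose level over cell groups was most like that of each of the 5 were found by Pearson's r of log2(CPM + 1) over 97 sums of 25 groups and up to 4 libraries. The sums share libraries, so r is a description. KDR was most like APLNR (0.753), ENTPD1 (0.733), CD320 (0.730) and LMO2 (0.722), followed by EHD3 (0.698). LMO2 was most like TAL1 (0.814), EHD3 (0.813), CCL17 (0.758), DIPK2B (0.758) and GP9 (0.739). For ETS1 these were FLI1 (0.773), SEPTIN9 (0.691), RASGRP1 (0.689), HAPLN3 (0.684) and MYC (0.681). HBZ had lower values, led by RCSD1 (0.653), SPTBN1 (0.641), RBMS1 (0.635), BLVRA (0.633) and LGALS2 (0.632), and HBA1 was most like ARHGAP25 (0.819), ACVRL1 (0.785), TESC (0.779), RAC2 (0.768) and ERG (0.755). Between HBZ and HBA1 r was 0.579, between LMO2 and HBA1 0.617 and between KDR and HBZ -0.03.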

How the data were processed

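Chick trunk cells were measured in 4 droplet libraries of 3′ ends. The authors aligned the reads with Cell Ranger 4.0.0 to GRCg6a, counted exonic and intronic UMIs with DropEst, filtered cells and removed doublets with Scrublet, and deposited raw counts per gene and cell, with no normalization. Cells were assigned to libraries by the prefix of their names. The stated minimum of 2500 UMIs and maximum of 7.5% mitochondrial UMIs were applied, which removed 2012 cells, all from 7S. Library totals were 37370837, 24490943, 64453991 and 54196129 UMIs from 4S to 13S.

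Cells were clustered as in the study's methods (counts scaled to 10000, 40 principal components, Harmony rewritten in numpy, 10 neighbours, Leiden resolution 3.5, Scanpy 1.11.5), which gave 48 clusters, of which 33 were named by marker lists, leaving 6573 cells unnamed. A name needed 3 markers each seen in 10% of cells or more, a mean z score over its markers of 1 or more, an own marker among the top 10 genes and at least 20 cells, and these thresholds were set after the data had been seen. Names were rebuilt, so they can differ from the study's. Sums per library were tested with edgeR 4.0.16 in R 4.3.3 (TMM, filterByExpr, quasi-likelihood, library as block, Benjamini-Hochberg). The filter could be met by the sums of 1 group alone, so counts of list genes describe only the genes it kept. Both sums of a block come from the same library, and their deviations from the group means correlated at 0.169 to 0.431, 0.0891 to 0.314 and 0.262 to 0.539 in the 3 comparisons. With the library as block, level differences between libraries, which were of different stages, are taken out. The p-values weigh the difference between the 2 sums of a library against a residual spread that is moderated over all genes. They do not measure the spread of a single gene over libraries, and a gene such as FECH could pass without the same direction in each library. On simulated counts for the comparison of KDR cells with and without LMO2 (5885 genes), 84.2% of 2-fold and 100% of 4-fold changes were recovered, and 5 unchanged genes were called. The simulated sums had the real totals but a common gene profile and a fixed dispersion for all genes. They held no stage or library effect and no correlation within a library, so these figures do not give the performance on the real counts.

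The 5 genes, the lists and the tests were chosen with earlier results of these data known. Named genes are the 5 genes, in each comparison up to 3 rises and 3 falls per list, the 5 largest rises and falls outside the lists (symbol, same direction in 4 libraries, at least 20 CPM), and the 5 genes nearest to each of the 5. One of these genes is not reported here. Genes named beside the rule were chosen after their values had been seen. List genes not found by name included GATA1, KLF1, ALAS2, NFE2, LYL1 and ETV2. HBM, HBG1 and HBG2 are synonyms of HBAD, HBBR and HBBA in RefSeq. Alternatives were DESeq2 1.42.0, no filter, no block, each library left out, unthinned groups, higher UMI minimums, and restriction to or removal of cell groups, some added after the data had been seen. No genome was used, and no coordinates or sequences are given.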

Additional observations from a re-analysis of the deposited data

Results flagged for a closer look

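The 2012 cells of the 7S library that fell under the minimum of 2500 UMIs entered no comparison, and each of the 5 genes had counts in them. They held 4038915 UMIs, with a median of 2092 per cell. KDR had 55 UMIs there, or 13.6 CPM beside 26.0 in the cells kept at 7S. LMO2 had 458 UMIs, or 113 beside 108 CPM. ETS1 had 324 UMIs, or 80.2 beside 110 CPM. HBZ had 11 UMIs, or 2.72 beside 1.27 CPM, and HBA1 had 7 UMIs, or 1.73 beside 0.857 CPM.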

How the results depend on the processing

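The ratio of 13S to 4S moved in size with the measure. From thinned and unthinned shares of cells it was 0.133 and 0.149 for KDR, 0.332 and 0.306 for LMO2, 0.597 and 0.550 for ETS1, 1.36 and 1.14 for HBZ, and 1.33 and 0.971 for HBA1, which turned. Without cells of at least 10 globin UMIs it was 1.22 for HBZ and 0.836 for HBA1, which turned too. With at least 2 UMIs of each gene required, 5 pairs, not 9, were above the product in all 4 libraries, and the mean over libraries of KDR cells under this minimum of LMO2 was 42.2%. The count of genes past the test for KDR cells with against without LMO2 was 442, and 249 with DESeq2, 864 with no filter, 7 within vessel cells, 12 outside them, and 183 (without 7S) to 653 (without 4S) with a library left out. HBZ could not be fitted without 4S or without 10S. For LMO2 cells with against without globin it was 110, and 37 with DESeq2, 532 unthinned, 61 and 47 with at least 3 and 10 globin UMIs, 3 within vessel cells, and 59 (without 7S) to 88 with a library left out. For LMO2-negative cells with against without KDR it was 464, and 193 with DESeq2, 74 in lateral plate mesoderm-like cells, 131 with at least 2 KDR UMIs, and 274 (without 4S) to 507 with a library left out. With no replicate block the counts were 174, 9 and 6. Among LMO2 cells with globin, values turned at 3 globin UMIs (KDR -0.69, ETS1 -0.16, FLI1 -1.02), at 10 (KDR -2.53, ETS1 -1.15, CDH5 -1.42, FLI1 -11.28, TMEM268 -0.26) and within vessel cells (KDR -0.26, ETS1 -0.25, FLI1 -0.19). The side with globin held 3, 0, 2 and 11 cells from 4S to 13S at 3 UMIs, and 0, 0, 2 and 8 at 10. The size of the FLI1 value at 10 is therefore not resolved. CDH5 lost its call for LMO2 cells with against without globin when 7S was left out (adjusted p = 0.0846, edgeR). Over all named genes and alternatives, 617 of 828 values kept direction and call, 196 lost the call, 4 gained it and 11 turned. The causes were not tested. With 1 library per stage, depth and stage cannot be told apart from library, and levels under 3 counts are not resolved.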

Other observations

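The other receptors and the ligands of the VEGF pathway had their highest levels in different cell groups. VEGFA, the main ligand of KDR, had 51.6 ± 7.64 CPM (SD, n = 4 libraries) in cluster 22, led by ACTA2 and LUM, 28.9 ± 11.3 in cluster 14, 22.5 ± 13.3 in notochord-like and 20.8 ± 8.30 in somitic mesoderm-like cells. VEGFC, the main ligand of FLT4, had 33.5 ± 19.6 CPM in cluster 28. FLT4 was at 110 ± 17.8 CPM in notochord-like cells and at 97.0 ± 50.4 CPM in the vessel clusters, levels that differed by less than the spread over libraries. FLT1 was highest in the vessel clusters at 31.3 ± 13.4 CPM, as was NRP1 at 109 ± 28.8. CA2, which rose with globin among LMO2 cells, had 294 ± 180 CPM in preneural-like cells, where globins were near 0. HBE had 3.98 ± 1.20 CPM in surface ectoderm-like cells, from 72 UMIs.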
